A study of Mus musculus with 10 samples.

Results

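The proteasome subunit genes described here are the rows of a left atrial RNA-sequencing table whose symbols begin with Psma, Psmb, Psmc, Psmd, Psme, Psmf or Psmg followed by a number, without the 3 interferon-inducible catalytic subunits Psmb8, Psmb9 and Psmb10. The rule took 46 of the 23337 genes in the table: 8 of the alpha ring and 8 of the beta ring of the 20S core, 9 of the base and 8 of the lid of the 19S cap, 5 activators or inhibitors, 7 assembly chaperones, and Psmc3ip. Psmc3ip matches by name only, since it encodes a cofactor of meiotic recombination and no proteasome subunit. Psmc3ip is left out of every count below, except that of the groups examined for a library that stood apart. Left atria were taken from adult mice of mixed C57B6 and 129 background. The 4 controls (2 female and 2 male) are labelled Tbx5 +/+ and the 6 knockouts (3 female and 3 male) Tbx5 -/-. In the knockout, Cre recombinase expressed from the ubiquitous R26 locus and switched on by tamoxifen removed exon 3 of Tbx5. Tbx5 is a transcription factor of the T-box family that acts in cardiac development and atrial rhythm. Because the recombinase is active in all cell types, the loss is not limited to cardiomyocytes. The protocol gives 0.167 mg of tamoxifen daily on 3 days, with atria collected after a further 1 week. Whether the controls had Cre or were given tamoxifen is not stated in the labels, which give an age of 8 to 10 weeks for the animals but 6 to 8 weeks in the protocol. Libraries are named by animal, with M or F for the sex.

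The proteasome is the protease that breaks down most short-lived and damaged proteins in the cytosol and nucleus, usually after they have been tagged with ubiquitin. Its 20S core is a barrel of outer alpha rings, which gate the entrance, and inner beta rings, which hold the cutting sites. The 19S cap binds ubiquitin chains, removes them and unfolds the substrate, with a base of ATPases and a lid that includes a deubiquitinase. Other activators can replace the cap, dedicated chaperones help assemble both parts, and in heart muscle the system turns over contractile proteins.

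Libraries held 5701670 to 7697556 assigned reads in the control group and 5789632 to 7355782 in the group labelled knockout. The check of the target gene goes against the label: Tbx5, counted over the whole gene, averaged 939 ± 125 in controls (normalized counts, SD, n = 4) and 1952 ± 336 (n = 6) in the libraries labelled knockout (log2 fold change 1.03, adjusted p = 4.78e-05, edgeR). Removal of 1 exon leaves the rest of the transcript countable, so this value does not measure the deletion, and every direction below rests on the labels. The labelled tissue carried its markers, with Nppa, Myl7, Myl4 and Sln all abundant in controls. Of 7 cardiomyocyte markers, 5 fell, by log2 fold changes from -4.03 for Myl7 to -0.46 for Nkx2-5. The other 2, Tnnt2 (0.63) and Actn2 (0.43), rose. All 11 macrophage markers rose, with a summed normalized count of 4160 to 5706 in controls and 8968 to 13539 in the libraries labelled knockout. Of 10 fibroblast markers, 8 rose and 1 fell (summed 21078 to 23058 against 39346 to 54290), and of 10 endothelial markers 4 rose and 2 fell (10299 to 11105 against 12149 to 14338). All 12 cell cycle genes rose, from a summed 118 to 367 to 1167 to 3152. At the adjusted p of 0.05 used for these counts (edgeR), 20.8% of all genes tested rose and 21.8% fell. The endothelial falls, 2 of 10, are near that share. In bulk tissue, fewer cells of a type and less RNA of a gene per cell cannot be told apart, and the part these shifts have in the proteasome values was not tested.

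Many proteasome genes were higher in the libraries labelled knockout, by modest amounts, and in edgeR's quasi-likelihood test none of them was lower. Of 45 proteasome rows, 44 had enough reads to test, and 20 of these (45.5%) rose at an adjusted p of 0.05 over 13191 genes. Over all genes tested, 20.8% rose and 21.8% fell, 42.6% in either direction. The 20 rises ran from 1.19-fold to 1.73-fold with a median of 1.32-fold. The median log2 fold change over the 44 genes was 0.28, and over all genes tested it was -0.00092. A positive log2 fold change was found for 38 of the 44, against 49.9% of all genes. In 12 of them every library labelled knockout lay above every control, and in none did the reverse hold, where 16.3% and 15% of all genes did so. At an unadjusted p of 0.05, 25 genes were higher and 1, Psme4, was lower. The authors' deposited table, made with DESeq2, holds an adjusted p under 0.05 for 22 higher genes and 1 lower gene among the 44, and DESeq2 run here likewise called 1 lower, Psme4. The rise was most frequent in the beta ring (7 of 7 tested) and followed by the lid (4 of 8), the base (4 of 9), the alpha ring (3 of 8), the activators (1 of 5) and the chaperones (1 of 7). These class counts are small and no test between classes was run. When GC content and transcript length were fitted per library, 13 genes rose and 1 fell (Psmg1). Shares over all genes are not given here for the unadjusted, the DESeq2 or the GC and length counts. No excess over all genes can be read from those counts. The order of the classes then changed, with 4 of 8 in the lid, 3 of 7 in the beta ring, 3 of 9 in the base, 2 of 8 in the alpha ring, 1 of 7 chaperones and 0 of 5 activators higher. The chaperone was then Psmd10, and Psmg4 did not pass.

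**Figure D1:**
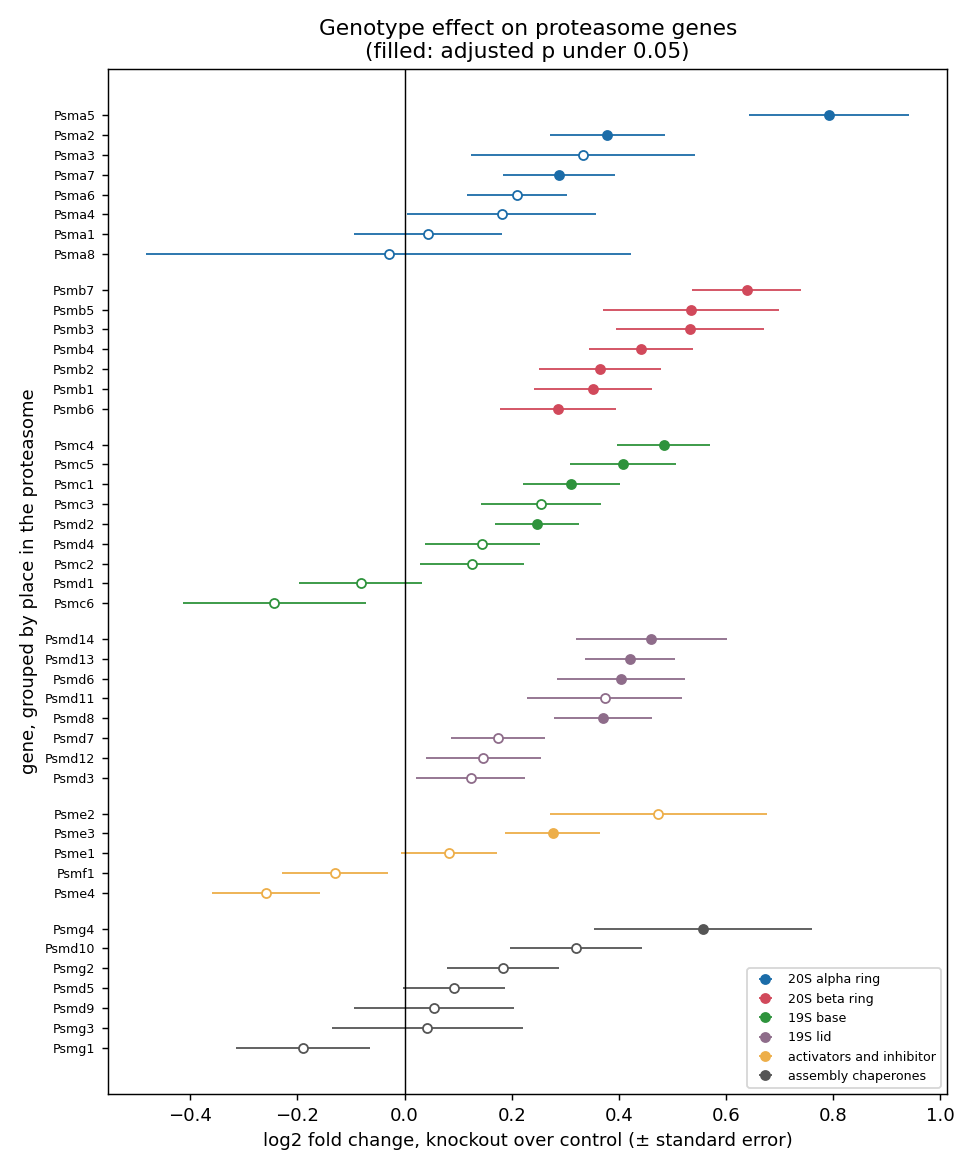
Log2 fold change of the libraries labelled knockout over control (x axis, log2 scale) for each tested proteasome gene, grouped by part of the complex; points are estimates and bars are standard errors. All 7 tested beta ring genes passed the adjusted p of 0.05, against 3 of 8 in the alpha ring and 1 of 5 among activators and inhibitor. Of all genes tested, 20.8% rose.

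Promoter sequence was examined for letters that the genes of the complex share. RefSeq windows on GRCm38.p6, from 250 bases before to 50 after a transcription start, were at hand for 37 of the genes (40 windows). The letters TGACNNNGC, the core of the antioxidant-type element bound by factors of the Nrf family, of which Nfe2l1 is known to drive proteasome genes, were searched on both strands. They occurred in 6 of the 40 windows (15%) and in 12.4% of 32851 windows of the same length. CCAAT, the box bound by the NF-Y factor, occurred on either strand in 13 of 40 windows (32.5%) and in 37.4% of all. A match describes letters only. Stretches from 120 bases before to 10 bases after the start, written 5′ to 3′ on the gene's strand, are shown for the gene with the largest rise (Psma5), the catalytic subunits Psmb5 and Psmb6, which rose, and Psme4, the activator with the lowest fold change. Capitals mark TGACNNNGC or its reverse complement. The stretches lie at chr3:108256806-108256935 (Psma5, plus strand), chr14:54617986-54618115 (Psmb5, minus strand), chr11:70525237-70525366 (Psmb6, plus strand) and chr11:30771655-30771784 (Psme4, plus strand).
Psma5: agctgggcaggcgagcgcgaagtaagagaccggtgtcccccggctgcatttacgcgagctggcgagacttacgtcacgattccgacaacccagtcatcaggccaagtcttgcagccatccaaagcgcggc
Psmb5: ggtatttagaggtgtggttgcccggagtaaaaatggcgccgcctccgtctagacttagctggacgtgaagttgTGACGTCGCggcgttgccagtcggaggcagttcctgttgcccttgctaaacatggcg
Psmb6: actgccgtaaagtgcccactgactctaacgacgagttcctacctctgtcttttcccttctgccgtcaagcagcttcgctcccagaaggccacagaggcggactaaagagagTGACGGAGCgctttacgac
Psme4: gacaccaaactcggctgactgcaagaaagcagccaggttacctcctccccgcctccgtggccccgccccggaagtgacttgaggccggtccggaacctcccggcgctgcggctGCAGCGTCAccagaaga
The match began 47 bases before the start in Psmb5, 9 before it in Psmb6 and 7 before it, on the opposite strand, in Psme4, and Psma5 had none in the stretch. Among these chosen stretches the letters were present beside Psmb5, Psmb6 and Psme4 and absent beside Psma5. With GC and length fitted per library, Psmb5 (adjusted p = 0.0824, edgeR) and Psmb6 (0.704) did not pass. Psme4 was then at a log2 fold change of -0.02 (adjusted p = 0.879). Whether the letters go with a change in level was not tested. The other windows with a match were those of Psmd9 (31 bases before the start), Psmc6 (227) and Psmd12 (247), none of which passed the test.

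In the alpha ring, whose subunits form the gate of the core, Psma5, Psma2 and Psma7 rose. Psma5 (chr3:108256926-108279974, GRCm38) stood at normalized counts of 78.0, 77.0, 74.0 and 88.9 in controls and at 96.5, 139 and 175 (lowest, median and highest) in the libraries labelled knockout. The groups did not overlap, and its log2 fold change of 0.79 ± 0.15 (SE, adjusted p = 0.000808, edgeR) was the largest of all the proteasome genes tested. Psma5 shares 54.8% of its 51-base windows with other genes, among them processed copies, so its reads may be divided. Psma2 read 420, 496, 466 and 504 in controls against 483, 638 and 705, a log2 fold change of 0.38 ± 0.11 (adjusted p = 0.0116). For Psma7 the controls were 654, 814, 774 and 843 and the others 765, 975 and 1041 (0.29 ± 0.10, adjusted p = 0.0397). In Psma2 and Psma7 only the lowest library labelled knockout, M1, lay within the control range, and Psma7 lost its call in 7 of the 10 fits that left out 1 library. With GC and length fitted per library Psma7 did not pass (0.11, adjusted p = 0.221). Psma8, the testis form of an alpha subunit, had 3 to 14 reads per library: 7.1, 11.9, 3.47 and 6.28 normalized counts in controls and 2.55, 7.75 and 12.4 in the others, a log2 fold change of -0.03 ± 0.45. The remaining 4, Psma1, Psma3, Psma4 and Psma6, had log2 fold changes from 0.04 to 0.33 and adjusted p from 0.0841 to 0.828.

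The beta ring holds the 3 cutting sites, in Psmb6 (caspase-like), Psmb7 (trypsin-like) and Psmb5 (chymotrypsin-like), and all of them rose, as did the structural subunits Psmb1, Psmb2, Psmb3 and Psmb4. Psmb7 (chr2:38588036-38644087) had 591, 611, 631 and 620 in controls and 757, 992 and 1107 in the libraries labelled knockout. Every value of the latter exceeded every control, and the log2 fold change was 0.64 ± 0.10 (adjusted p = 0.000225). Part of its exons is overlapped on the opposite strand by exons of Nek6, and the strand setting of the counting is not given in the sources used here. Psmb4 stood at 855, 1085, 944 and 1017 in controls and at 1148, 1383 and 1450 in the others (0.44 ± 0.10, adjusted p = 0.00234). Psmb3 went from 85.1, 113, 127 and 142 to 151, 171 and 204 (0.53 ± 0.14, adjusted p = 0.00675). In both, the groups were separate. Psmb6 was the weakest call, at 647, 785, 826 and 823 in controls against 772, 973 and 1069 (0.29 ± 0.11, adjusted p = 0.0464), with M1 again inside the control range, and its call was lost in 6 of the fits that left out 1 library. Psmb5 rose from 102 ± 13.2 (SD, n = 4) to 151 ± 30.9 (n = 6), Psmb1 from 698 ± 103 to 906 ± 84.5 and Psmb2 from 540 ± 84.9 to 706 ± 62.9. With GC and length fitted per library, Psmb1, Psmb4 and Psmb7 passed, and Psmb2 (log2 fold change 0.18, adjusted p = 0.119), Psmb3 (0.29, 0.0631), Psmb5 (0.33, 0.0824) and Psmb6 (0.04, 0.704) did not, so 1 of the 3 catalytic subunits did. Psmb3 and Psmb5 share 55.0% and 56.2% of their windows with copies. Psmb11, the thymus form, had 0 reads in all 10 libraries, which allows at most 3 counts in each.

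**Figure D2:**
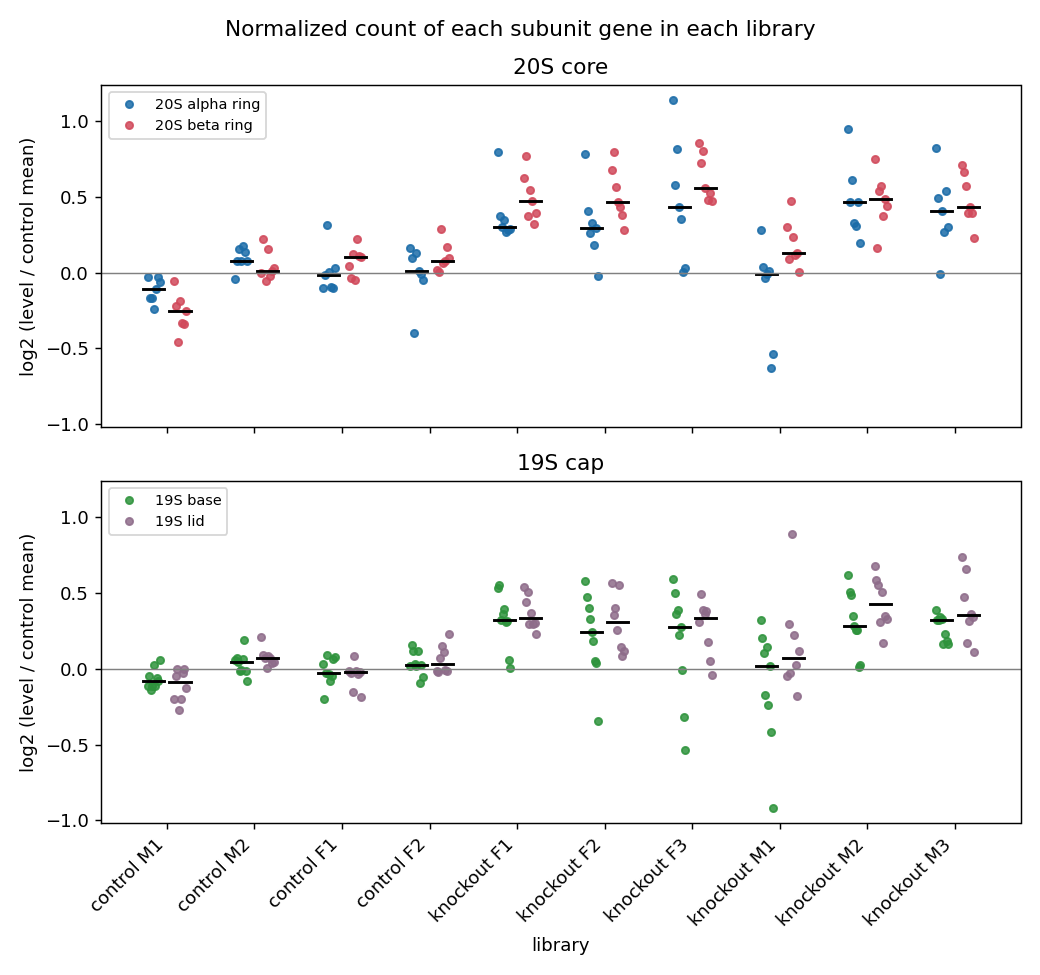
Level of each tested 20S and 19S gene in each of the 10 libraries relative to its control mean (log2 scale), without the scarce Psma8. The library labelled knockout M1 lies below the other 5 of its group for most genes.

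The base of the cap carries a ring of 6 ATPases, Psmc1 to Psmc6, that unfold the substrate, with the scaffold subunits Psmd1 and Psmd2 and the ubiquitin receptor Psmd4. Psmc4, Psmc5, Psmc1 and Psmd2 rose. Psmc4 (chr7:28041707-28050101) stood at 513, 578, 568 and 564 in controls and at 694, 817 and 851 in the libraries labelled knockout, without overlap (0.48 ± 0.09, adjusted p = 0.00052). Psmc5 read 348, 378, 313 and 401 against 414, 504 and 528, also without overlap (0.41 ± 0.10, adjusted p = 0.0045). Psmc1 read 414, 472, 448 and 495 against 491, 579 and 640 (0.31 ± 0.09, adjusted p = 0.0134), and here the lowest library labelled knockout fell just short of the highest control. Psmd2, the docking scaffold, changed from 939 ± 18.1 (SD, n = 4) to 1133 ± 70.0 (n = 6) with no overlap (0.25 ± 0.08, adjusted p = 0.0205), but did not pass with GC and length fitted (0.17, adjusted p = 0.0868). Psmd2 and Psmc1 share 25.8% and 16.8% of their windows with other genes. Psmd1 did not pass, at 896, 936, 988 and 964 in controls and 708, 961 and 1076 in the others (-0.08 ± 0.12, adjusted p = 0.602), and the libraries labelled knockout spread to both sides of the controls. Psmc6, named here after its values were seen, had the lowest log2 fold change of the 19S genes and a wide spread, from 937 ± 50.6 to 804 ± 212 (-0.24 ± 0.17, adjusted p = 0.271). Log2 fold changes of the ATPases ran from -0.24 for Psmc6 to 0.48 for Psmc4, and differences among them were not tested.

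In the lid, Psmd13, Psmd8, Psmd6 and Psmd14 rose, the last being the deubiquitinase that strips ubiquitin from the substrate. Psmd13 (chr7:140881968-140898643) had 383, 422, 387 and 389 in controls and 484, 544 and 594 in the libraries labelled knockout (0.42 ± 0.08, adjusted p = 0.0012). Psmd8 had 637, 775, 725 and 790 in controls and 854, 948 and 1074 in the others (0.37 ± 0.09, adjusted p = 0.00523). Both groups were separate in these genes. Psmd6 had 468, 492, 422 and 492 against 458, 641 and 740 (0.40 ± 0.12, adjusted p = 0.0145), where M1 lay among the controls. Psmd14 rose from 377 ± 44.2 (SD, n = 4) to 528 ± 97.0 (n = 6). Psmd3 had the largest adjusted p of the lid, with 350, 395, 337 and 450 in controls and 373, 415 and 481 in the others (0.12 ± 0.10, adjusted p = 0.352), and its groups overlapped broadly. Psmd7, Psmd11 and Psmd12 did not pass, at log2 fold changes of 0.15 to 0.37. Psmd11 was just outside the threshold (adjusted p = 0.0515), although all 6 libraries labelled knockout lay above all 4 controls, and Psmb6 was just inside it (adjusted p = 0.0464).

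Among the alternative caps, Psme3, a mainly nuclear activator that works without ATP or ubiquitin, was the one that rose. It read 195, 202, 210 and 214 in controls and 235, 246 and 287 in the libraries labelled knockout, with no overlap (0.28 ± 0.09, adjusted p = 0.0217). With GC and length fitted Psme3 did not pass, at 0.20 (adjusted p = 0.06). Psme4 (chr11:30771726-30880361), a large activator linked to the breakdown of acetylated histones, was at 3366, 2646, 3244 and 2550 in controls and at 2291, 2502 and 2736 in the others. Its log2 fold change was -0.26 ± 0.10 (adjusted p = 0.0513), and the groups overlapped through the lower control pair. In the authors' deposited table its adjusted p is 0.0495. Without control M2, control F2 or knockout M3 it passed as lower, and with GC and length fitted per library the log2 fold change was -0.02 (adjusted p = 0.879). Psme1 and Psme2, which form the interferon-inducible activator, read 276, 312, 305 and 305 against 289, 325 and 357 for Psme1 (0.08 ± 0.09, adjusted p = 0.488). For Psme2 the values were 24.8, 39.8, 34.7 and 28.2 against 32.7, 43.9 and 59.8 (0.47 ± 0.20, adjusted p = 0.0753), with 58.9% of its windows shared with other genes. Psmf1, an inhibitor of the core, had 160, 167, 174 and 154 in controls and 134, 155 and 166 in the others (-0.13 ± 0.10, adjusted p = 0.313). Neither Psme1, Psme2 nor Psmf1 separated the groups.

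Of the 7 assembly chaperones, Psmg4 rose and the others did not pass. That share, 14.3%, is below the 20.8% of all genes that rose. Psmg4, part of the alpha ring chaperones, read 17.7, 31.3, 25.4 and 28.2 in controls and 32.2, 37.4 and 50.3 in the libraries labelled knockout (0.56 ± 0.20, adjusted p = 0.04). The groups were separate by a narrow margin at a low count. Psmd10, a chaperone of the base, read 95.8, 111, 93.7 and 84.7 against 106, 121 and 143 (0.32 ± 0.12, adjusted p = 0.051), with 1 control above the lowest of the others. Psmg2 read 151, 116, 131 and 131 against 136, 155 and 162 (0.18 ± 0.11, adjusted p = 0.177). Psmg3 was nearly level, at 47.3, 45.7, 60.1 and 55.4 against 39.4, 56.4 and 67.2 (0.04 ± 0.18, adjusted p = 0.872). Psmd5, Psmd9 and Psmg1 had log2 fold changes of -0.19 to 0.09. Psmg4 lost its call in 5 of the fits that left out 1 library. With GC and length fitted per library Psmg4 did not pass (0.145, adjusted p = 0.535, edgeR). Psmd10 then passed as higher (0.36, adjusted p = 0.00958).

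As a share of all reads, the 45 proteasome rows took 0.316% ± 0.0128 (SD, n = 4) in controls and 0.398% ± 0.0273 (n = 6) in the libraries labelled knockout. The ranges, 0.301% to 0.333% and 0.347% to 0.426%, did not meet. In controls the 10 most abundant genes of a library took 20.2% of its reads and in the others 12.9%, and shares of all other genes are taken from the remainder. Without those genes the proteasome shares were 0.396% ± 0.0142 and 0.457% ± 0.0345, and the ranges overlapped, at 0.378% to 0.412% in controls and 0.390% to 0.483% in the others, through M1. The 20S rows took 0.101% and 0.141%, the 19S rows 0.150% and 0.191%, and the activators 0.0541% and 0.0527%, in controls and in the others. These shares are descriptions, with no test.

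The balance between parts was followed per kilobase of transcript, so that genes of different length can be set side by side. The mean level of the 20S genes was 408 ± 34.2 normalized counts per kb in controls and 525 ± 54.7 in the libraries labelled knockout, and that of the 19S genes 329 ± 13.6 and 396 ± 38.1. The ratio of 20S to 19S was 1.24 ± 0.0621 (range 1.149 to 1.289) in controls and 1.33 ± 0.0632 (1.296 to 1.457) in the others. These ranges did not overlap, but the gap between them was narrow and the ratio of F3 stood above the rest. The ratio of Psme4 to the cap was 1.39 ± 0.251 in controls and 0.985 ± 0.124 in the others, with M1 at 1.22 inside the control range of 1.159 to 1.668. These ratios are descriptions, with no test and no fit of GC and length per library. With that fit the log2 fold change of Psme4 was -0.02 (adjusted p = 0.879, edgeR).

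**Figure D3:**
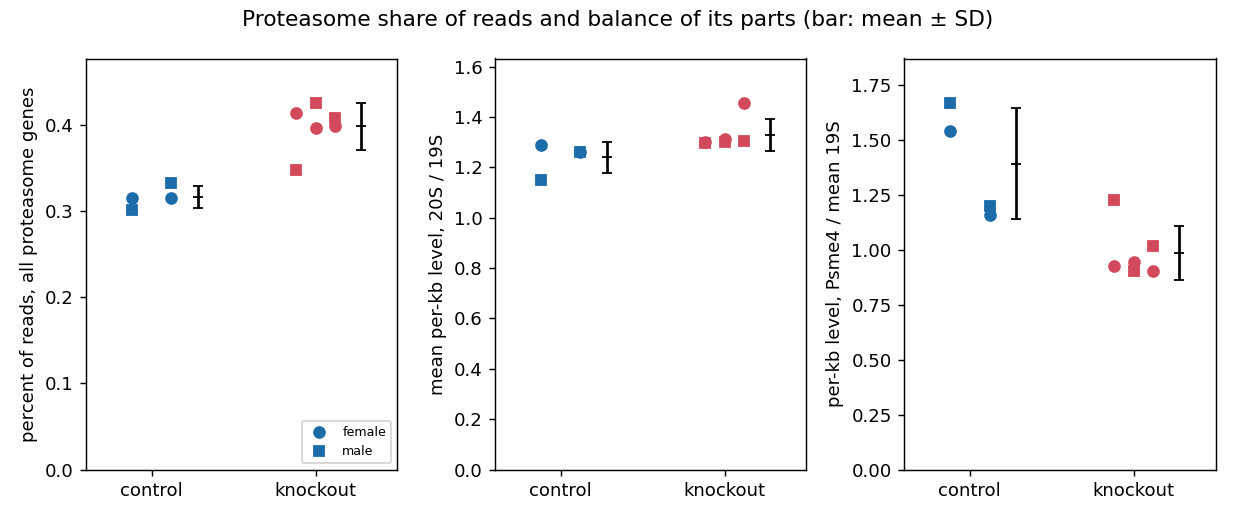
Per-library share of reads from the proteasome rows (percent of all reads) and ratios of per-kilobase levels between parts of the complex, for controls and libraries labelled knockout; each point is 1 library (circles female, squares male) and bars are mean ± SD. Read shares and the 20S to 19S ratio do not overlap between groups, and the ratio of Psme4 to the 19S genes is 1.39 in controls and 0.985 in the others. Without the 10 most abundant genes of each library the read shares overlap (0.378% to 0.412% in controls, 0.390% to 0.483% in the others). No value is fitted for GC and length.

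Within each part the genes differed in level by far more than the groups did. On the per-kilobase scale in controls, Psmb6 (965), Psma7 (844) and Psmb4 (824) led the core, and Psmb3 (152), Psmb5 (114) and Psma5 (64.2) stood low although the beta and alpha subunits are built into the particle in equal numbers. Psma3 was lower still, at 13.1. Psmb3, Psmb5, Psma5 and Psma3 share 55.0%, 56.2%, 54.8% and 22.0% of their windows with other genes, and the part of this in their levels was not tested. In the cap Psmc3 (829) was highest and Psmd11 (46.7) lowest. Psme4 (455) stood above Psme1 (269), Psme3 (77.1), Psmf1 (42.9) and Psme2 (33.2) among the activators. Genes of high and of low level were among those that rose: Psmb6, the highest of the core, rose by 0.29 on the log2 scale and Psma5, one of the low ones, by 0.79.

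**Figure D4:**
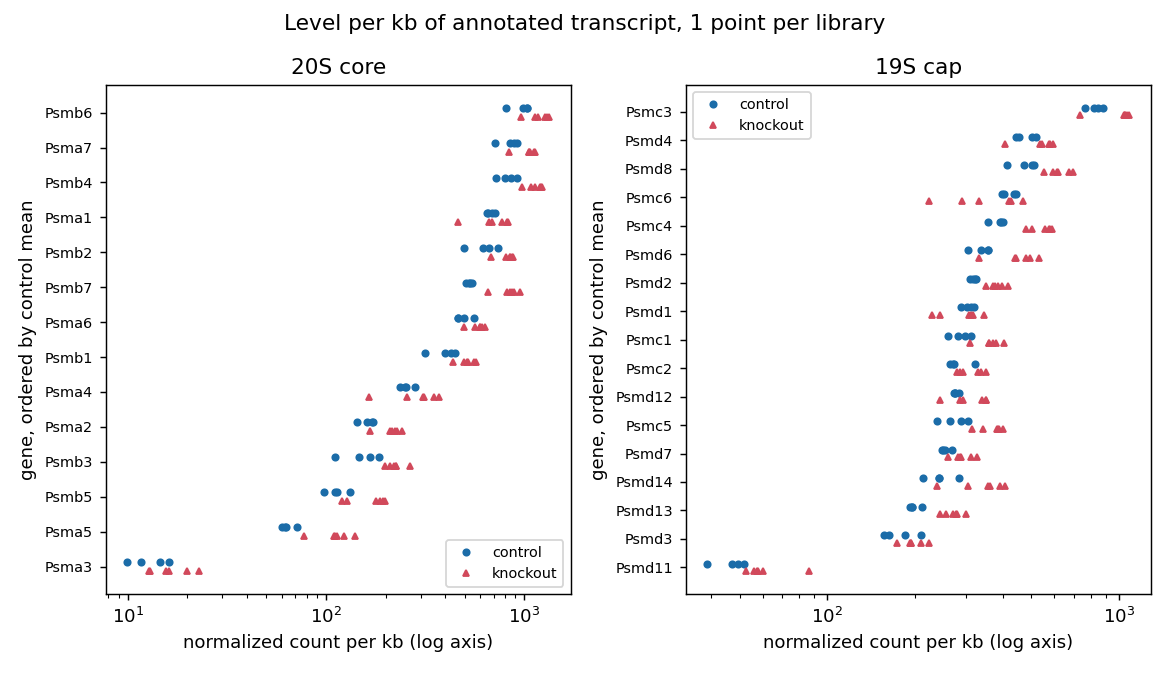
Level of each 20S (left) and 19S (right) gene per kilobase of transcript (normalized counts per kb, log axis) in controls and in the libraries labelled knockout, without the scarce Psma8. Each point is 1 library. In the core Psmb6 leads and Psma3 is lowest, and the points of Psmb7 and Psma5 do not overlap between groups.

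Transcript features moved with the result. Over 13034 genes, the log2 fold change had a rank correlation of -0.217 with transcript length and 0.216 with GC content, described across genes that share libraries. The tested 20S and 19S transcripts had a median of 1540.5 bp, against 3064.5 bp over all genes tested, and a median GC of 49.3% against 50.3%. Beta ring transcripts were shortest (median 899 bp, GC 52.2%), and alpha ring transcripts had a median of 1220 bp and 44.5% GC. The 18 core and cap genes that passed had a median of 1351.5 bp and 51.4% GC, and the 14 that did not had 1738.5 bp and 46.7% GC. After offsets for both features were fitted to each library, 5 rather than 10 of the 20S genes rose. In all, 13 rather than 20 rose, and the 13 include Psmd10 (0.36, adjusted p = 0.00958, edgeR), which had not passed before. The share of all genes that rose in that fit is not given here. Psma5, Psmb7, Psmb4, Psmc4 and Psmd13 kept their rise, at log2 fold changes of 0.69, 0.55, 0.29, 0.32 and 0.27. Of these, Psma5, Psmb7 and Psmd13 share over 10% of their windows with other genes. Among 31 proteasome rows with at most 10% of windows shared with other genes, 13 had passed, with a median log2 fold change of 0.21.

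**Figure D5:**
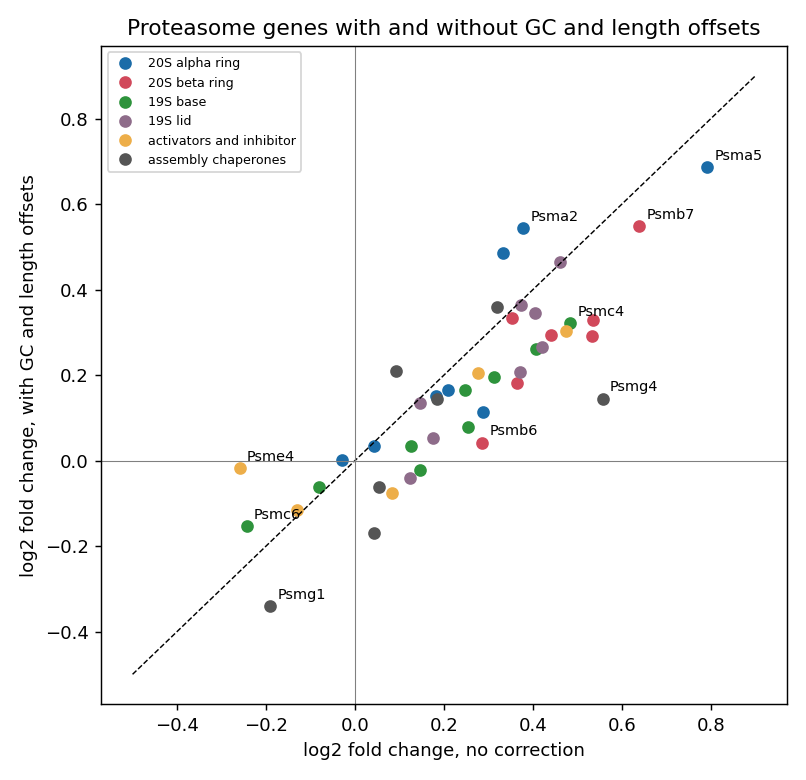
Log2 fold change of each tested proteasome gene before (x axis) and after (y axis) fitting GC content and transcript length per library. Points below the diagonal had a smaller change after the fit, and Psma5 and Psmb7 stay highest, at 0.69 and 0.55.

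The library labelled knockout M1 stood apart from its group. It was the lowest of the 6 in 27 of the 32 tested core and cap genes. Psmd11, at 247, was instead its highest value against 149 to 171 in the other 5. Without that library 28 proteasome genes rose, 12 of the 20S and 13 of the 19S genes, so the 19S count was 8 with it and 13 without. The share of all genes that rose without that library is not given here. Whether the gain is particular to proteasome genes cannot be read from these counts.

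The genotype effect was also fitted in each labelled sex. In females 7 of the 44 genes rose and 36 had a positive log2 fold change. In males 8 rose and 38 were positive. Over all genes 13.5% rose in females and 12.8% in males, and the proteasome counts of 7 and 8 are near those shares. The median log2 fold change of the 44 genes was 0.27 in females and 0.23 in males. Over all genes it was -0.0102 and 0.00169. No proteasome gene fell in either sex by edgeR, where 14.7% of all genes fell in females and 13.2% in males. None of the 44 fell at an unadjusted p of 0.05 either. The difference between the sexes passed for none of the 44 genes in edgeR or DESeq2 and none had an unadjusted p under 0.05, where 7.15% of all genes did and 0.205% passed after adjustment. The smallest p belonged to Psmd9, a base chaperone, at log2 fold changes of 0.29 in females and -0.20 in males (difference 0.50 ± 0.28, edgeR adjusted p = 0.785). Psmb5 followed at 0.76 and 0.27 (adjusted p = 0.793) and Psme1 at -0.06 and 0.21 (adjusted p = 0.821). With 2 control libraries per sex, a p that misses the threshold does not show that the sexes respond alike.

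Genes that work with the proteasome were counted in the same way, against the 20.8% of all genes that rose and the 21.8% that fell. Of 10 other proteasome-bound proteins 1 rose and 3 fell, which is near those shares. Shfm1, a small lid subunit, rose from 876 ± 44.5 (SD, n = 4) to 1149 ± 131 (n = 6), a log2 fold change of 0.37 ± 0.10 (adjusted p = 0.00857). AI314180, the mouse homolog of Ecm29, which binds core and cap together, fell from 1792 ± 197 to 876 ± 186 (-1.05 ± 0.14, adjusted p = 5.13e-05), and every library labelled knockout lay below every control. Fbxo7, which binds the inhibitor Psmf1, fell from 121 to 86.7 (-0.50 ± 0.13, adjusted p = 0.00764), again with no overlap. Zfand5 fell from 673 to 564 (-0.28 ± 0.10, adjusted p = 0.0303), a direction that reversed with GC and length fitted, and a call lost in 7 of the fits that left out 1 library.

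Of 9 tested genes of proteasome transcription and ubiquitin supply, 1 rose and 4 fell. Nfe2l1, the factor that drives proteasome genes when activity is short, was at 2692 ± 127 and 2749 ± 76.9 (log2 fold change 0.01, adjusted p = 0.956), a transcript level that says nothing of the protein. Uba1, the main ubiquitin-activating enzyme, rose from 1865 to 2404 (0.34, adjusted p = 0.00342) and the other such enzyme, Uba6, fell from 226 to 171 (-0.42, adjusted p = 0.016). Ngly1, which processes Nfe2l1, fell from 381 to 303 (-0.36, adjusted p = 0.0305), and Ddi2, its protease, fell as well (-0.27, adjusted p = 0.0416), a direction that reversed with GC and length fitted. Uba6 did not pass once GC and length were fitted, and Ngly1 and Ddi2 lost their calls in 4 and 8 of the fits that left out 1 library. Of 13 genes of substrate delivery 2 rose and 1 fell, among them Faf2, which recruits Vcp to membranes (196 to 275, 0.46, adjusted p = 0.000611), Faf1 (683 to 558, -0.32, adjusted p = 0.024) and Ufd1l (258 to 315, 0.26, adjusted p = 0.0416). Faf1 and Ufd1l lost their calls in 5 and 7 of the fits without 1 library. Nsfl1c did not pass, at 136 and 178 (0.37, adjusted p = 0.0611).

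The interferon-inducible subunits that the selection left out all rose, at sizes above the median of the constitutive beta ring. Psmb8 changed from 115 ± 16.4 to 183 ± 21.9 (0.64 ± 0.13, adjusted p = 0.001), Psmb9 from 42.4 ± 7.49 to 68.1 ± 15.5 (0.65 ± 0.20, adjusted p = 0.0152) and Psmb10 from 206 ± 32.2 to 310 ± 51.1 (0.57 ± 0.14, adjusted p = 0.00468). They are abundant in immune cells, whose macrophage markers rose in the same libraries by a median log2 fold change of 1.24 (11 of 11), and the part of that in these values was not tested. Psmb9 did not pass with GC and length fitted (0.49, adjusted p = 0.0539). All 3 passed in females, at log2 fold changes of 0.86, 0.97 and 0.91, and none in males, at 0.45, 0.35 and 0.23. The difference between the sexes did not pass for any of them (edgeR, adjusted p = 0.792, 0.802 and 0.437, for Psmb8, Psmb9 and Psmb10). The 3 constitutive catalytic subunits that they replace, Psmb5, Psmb6 and Psmb7, rose by 0.53, 0.29 and 0.64, and the difference between the sets was not tested.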

How the data were processed

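RNA from 10 left atria, 4 labelled control and 6 labelled Tbx5 knockout, was globin-depleted and sequenced as single-end 51 bp reads, per the labels' protocols. The submitters' processing notes name FastQC, TopHat2 2.0.11, featureCounts, DESeq2 and build mm10. The annotation, strand setting and handling of multi-gene reads were not given in the sources used here. The authors deposited raw counts per gene and library, per the file headers. They also deposited a normalized signal (each count over its library's size factor), and these normalized counts are the levels printed, as mean ± SD. The authors' log2 fold change, linear fold, test score (statistic), p-value and adjusted p-value are their own comparison, per the file headers. The number of per-sample columns left unmatched to a label is 0.

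Raw counts were tested with edgeR 4.0.16 (R 4.3.3): filterByExpr by group, TMM scaling, the quasi-likelihood F-test and Benjamini-Hochberg adjustment at 0.05 over 13191 genes, with all 10 libraries. The standard error is the absolute log2 fold change divided by the square root of F. Effects by sex and their difference came from 1 fit of 4 sex and group cells. Scripts were tested on simulated counts. Positions, lengths and shared 51-base windows come from GENCODE M21 on GRCm38, with transcripts taken by symbol, and promoters come from RefSeq on GRCm38.p6. A window is shared when the same 51 bases occur in another gene's transcripts. Labels name separate animals but no batch, so p-values measure the spread between these libraries. No 2 libraries of a group agreed within sampling noise (lowest chi-square per degree of freedom 4.37).

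The gene members, classes, pathway and marker lists were chosen with earlier results of these data known. Values per library are given for the 3 smallest and the largest adjusted p in each class and for every activator, group means for the immunoproteasome genes and up to 4 genes per other list, and sex effects for the 3 smallest p. Other genes are named as examples, chosen after their values were seen. Alternatives were RLE, upper-quartile and library-size scaling, DESeq2 1.42.0, limma-voom (limma 3.58.1), no filter, at least 50 counts in 4 libraries, sex or a replicate block as covariate, an adjusted p of 0.1, a test against a fold of 1.2, GC and length offsets (mgcv 1.9.3) and each library left out. Leaving out the genes with over 10% of windows shared was added after the data were seen. From a pathway list, 1 gene that the rule would name is not reported here.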

Additional observations from a re-analysis of the deposited data

Results flagged for a closer look

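In each group, a library was singled out when its gap to the nearest other library was a large part of the group's range by Dixon's test at 95%. Of 100 groups examined, which include those of Psmc3ip, 11 had such a library, and chance alone gives about 1 in 20. The library labelled knockout M1 accounts for 8 of the 11. Its normalized count was the lowest of its group in Psma7 (765), Psmb2 (584), Psmc3 (1203), Psmd4 (541) and Psmg1 (75.7), and the highest in Psmd11 (247). Its share of reads from 20S rows was the lowest, at 0.116%, and its ratio of Psme4 to the 19S genes per kilobase was the highest, at 1.224. Control M2 was highest of the controls in Psmc2 (571) and Psmd13 (422). The library labelled knockout F3 had a 20S to 19S ratio of 1.457, above the other 5 of its group. None of the proteasome genes moved in opposite directions in every library of the 2 sexes.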

How the results depend on the processing

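No 20S or 19S gene fell in any fit, and medians stayed above 0 throughout. DESeq2 called 1 activator lower and 1 gene lower in all, Psme4, and a threshold of 0.1 gave the same counts of 1 and 1, with 2 activators and 2 chaperones higher. Chaperones higher also numbered 2 with RLE scaling, upper-quartile scaling, no filter or sex as a covariate. Scaling to library size only shifted the median of all genes to a log2 fold change of 0.14, and gave medians of 0.42 for all proteasome rows, 0.491 for the 20S and 0.391 for the 19S genes, with 14 of the 19S genes, 2 activators and 3 chaperones higher. With that scaling all genes higher numbered 3942 and all genes lower 2020, against 2741 and 2881. For the other alternatives the counts over all genes are not given here. A test against a fold of 1.2 left 6 genes higher: 4 of the 20S, 2 of the 19S, 0 activators and 0 chaperones. With GC and length offsets 13 genes rose, 5 of them 20S and 0 activators, and 1 fell, the chaperone Psmg1, so 1 chaperone was lower. The chaperone higher in that fit was Psmd10 and not Psmg4. Those offsets also turned Zfand5 to 0.0961 and Ddi2 to 0.0171; the cause was not tested. Without the genes that share over 10% of windows, 31 genes remained and 13 rose, 6 of the 20S and 5 of the 19S. Of the 10 core and cap genes left out, 7 had passed, with a median log2 fold change of 0.397. Of the 22 kept, 11 had passed, with a median of 0.271. The part of shared windows in these values was not tested. Leaving out 1 library gave 17 to 28 genes higher and 0 to 1 lower, with 8 to 12 of the 20S, 8 to 13 of the 19S (13 without knockout M1), 1 to 2 activators higher and 0 to 1 lower (Psme4), and 0 to 2 chaperones. The labels do not say that the animal names pair the groups. Correlations of same-named libraries were -0.0367, 0.172, -0.126 and -0.0506, and 1 of 4 (M2) correlated best with its own name. So few values cannot decide whether animals were paired. With a replicate block 15 genes rose, 0 of them activators and 0 chaperones. Counts of a few reads, as for Psma8, limit precision.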
